A study of Homo sapiens with 2 samples.

Results

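MSI2, MRPS23, VEZF1 and SRSF1 lie within 0.791 Mb of each other on the long arm of chromosome 17, windows of 20 kb included, on the telomeric side of HLF, and 95 of the 49245 listed TCF3::HLF-HiChIP interactions touched them. HiChIP joins chromatin immunoprecipitation to proximity ligation, so that each listed interaction is a pair of 5-kb bins that were ligated to each other in chromatin pulled down with 1 antibody. An interaction was counted for the locus if either of its bins overlapped the body of 1 of the 4 genes (GENCODE release 44, hg38) or the 20 kb around it. The locus was chosen by the contact counts and summed contact counts (sumCC) of its interactions, so these values are given as a description, with no test.

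The cells were HAL-01, a leukemia cell line with t(17;19), the translocation that fuses TCF3 to HLF. All cells carried Cas9GFP and a wt-TCF3 KO, so the E2A antibody (CST #12258), which is directed against TCF3, could pull down the fusion without wild-type TCF3. The KO line was made with an sgRNA against TCF3 and grown out as colonies checked for clonal expansion. The design held 1 condition and 2 biological replicates, which the authors merged before they called interactions, so no value below has a replicate error. The contact count is the number of read pairs that joined the 2 bins, without normalization. Contact counts of all listed interactions added up to 1268490, and those of the locus to 2776. Exact Poisson 95% intervals on contact counts and Wilson 95% intervals on shares hold no replicate error. Duplicate read pairs were not removed, so the Poisson intervals can be too narrow even for counting error. The Wilson intervals treat interactions, bins or sites as independent.

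The 4 genes have unrelated functions. MSI2 encodes Musashi RNA-binding protein 2, a regulator of translation known for its part in hematopoietic stem cells and myeloid leukemia. MRPS23 encodes a protein of the small subunit of the mitochondrial ribosome, VEZF1 a zinc-finger TF known from blood vessel development, and SRSF1 an SR protein that acts in splice-site choice. HLF is a PAR bZIP TF, a family whose dimers bind palindromic sites built around TTACGTAA, and TCF3::HLF contains the HLF DNA binding domain. The HLF motif was searched on both strands as an exact match to TTACGTAA, which reads the same on both strands, or to TTATGTAA.

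Of 14 motif sites in anchors of the locus and in partners of its largest contacts, 9 are shown first, because the results below turn on the bins that hold them. They were chosen after their values were seen. Capitals mark the motif, lower case the flanks, and each sequence is read 5′ to 3′ from hg38 on the strand that spells the motif. The first pair lies in the bin at the MRPS23 start, in intergenic sequence upstream of the gene. Their positions are chr17:57851499-57851528 on the minus strand and chr17:57852623-57852652 on the plus strand.
MRPS23 upstream site 1: tatcagacaagTTATGTAActtcctgaggc
MRPS23 upstream site 2: ctctgagcaagTTATGTAActtttcgagcc
The sites were 1.12 kb apart, 1.45 and 2.58 kb upstream of the annotated MRPS23 start, and the second was 8.60 kb from the end of transcription of the neighbor CUEDC1. They faced opposite ways and shared a run of 15 bases, caagTTATGTAActt. This run occurred 5 times in all anchor bins of the list together.

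The next pair lies in the bin chr17:58000001-58005000, called the SRSF1 body bin below. It covers the 3′ part of SRSF1 and sequence past its end, and holds no coding exon. Together with the MRPS23 start, this bin gave the locus its largest contact count. The sites are chr17:58004274-58004303 on the plus strand, within the UTR of an SRSF1 transcript, and chr17:58000807-58000836 on the minus strand, just past the annotated end of SRSF1 in an intron of the overlapping gene ENSG00000266086.
SRSF1 site 1: gttgcaagaagTTACGTAAtttaagtttac
SRSF1 site 2: tgctgagggttTTATGTAAtacagggtata
The MSI2 anchors with a site that has a purine before and a pyrimidine after the motif, the flanks that PAR bZIP proteins are known to prefer, are shown for comparison. Both sites are intronic and on the plus strand, at chr17:57468111-57468140 and chr17:57329777-57329806.
MSI2 intron site 1: tttactgtctgTTACGTAAcctcttagagc
MSI2 intron site 2: tgttttccgagTTACGTAAttttgcagaac
Of the partners outside the gene windows, the bin in CUEDC1 with the largest contact count held 2 sites in introns, and the bin at the DYNLL2 start held 1 in an intron. The positions are chr17:57941772-57941801 and chr17:57944096-57944125 on the minus strand, and chr17:58084647-58084676 on the plus strand.
CUEDC1 site 1: aaacatgctacTTATGTAAtttagtttagt
CUEDC1 site 2: ggaatattaatTTATGTAAtcaatcctaga
DYNLL2 site: taagaccaataTTATGTAAccgcaggctct
Besides the MSI2 sites, which were picked for these flanks, both MRPS23 sites, SRSF1 site 1 and the DYNLL2 site had a purine before and a pyrimidine after the motif. SRSF1 site 2 and the CUEDC1 sites did not. None of the 5 sites not shown, which lie in bins with 1 or 2 interactions in and before MSI2 and beside VEZF1, had them.

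The MRPS23 start was the hub of the locus. The bin chr17:57850001-57855000 holds 56 bases at the start of MRPS23, including bases of a coding exon, and otherwise sequence upstream of the gene. It took part in 31 interactions. It ranked 24 of 53535 anchor bins by number of interactions. With q-values under 1e-05 it had 18 interactions and ranked 50. Its interactions were 32.6% of those of the locus and held 36.9% of their contact counts (1023 of 2776). The next anchors of the locus had 8 interactions each. Of the 31 partners, 10 were centromeric and 21 telomeric, at distances from 50 to 2995 kb, and 16 lay within 300 kb. The contact counts ran from 14 to 141 with a median of 28.

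**Figure D1:**
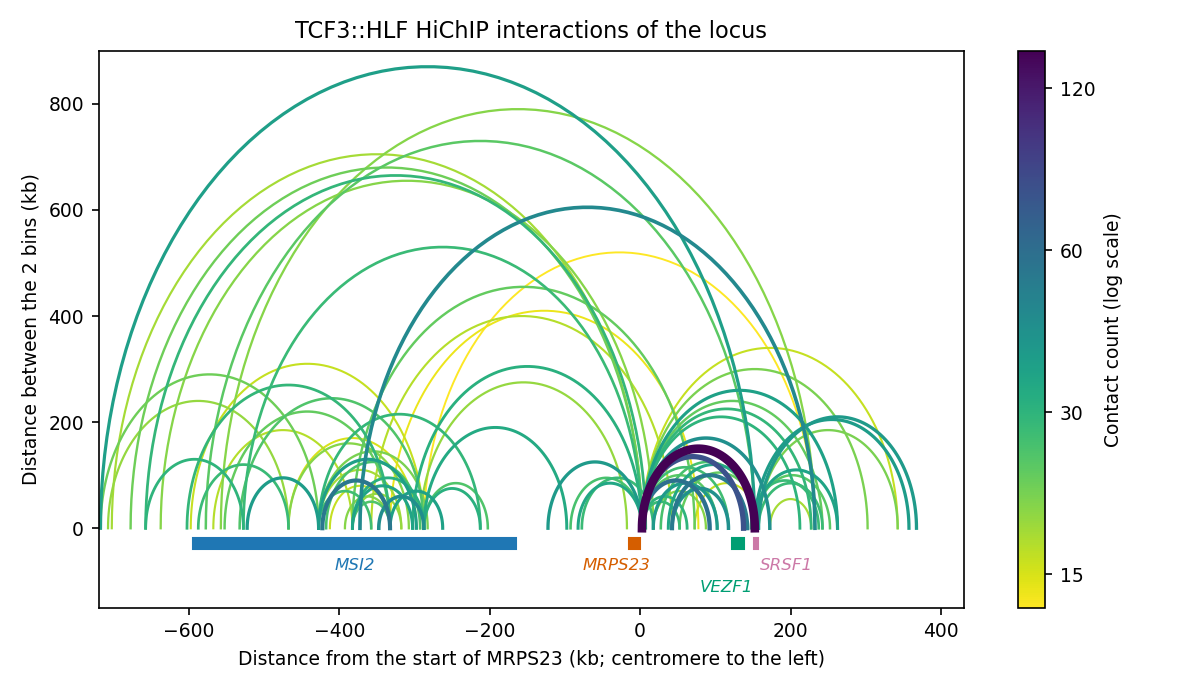
Interactions of the locus as arcs from the center of one 5-kb bin to the other, along the distance from the MRPS23 start (x axis, kb, centromere to the left) with the distance between the bins on the y axis (kb), line color and width giving the contact count (log scale) and bars the 4 genes. The plot shows 79 arcs, 16 that reach beyond its edges are not drawn, and the darkest arc joins the MRPS23 start to the SRSF1 body.

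Contact counts fall with distance, so each was also divided by the median contact count of all listed interactions at exactly the same distance. On this scale, 18 of the 31 interactions of the MRPS23 start were above 1, beside a background of 47.6% over the whole list. The partner in the SRSF1 body, at a distance of 150 kb, was met by 141 contacts (Poisson interval, 119 to 166). This was 5.88 times the median at its distance and the 4th of 494 interactions there. FitHiChIP gave it a q-value of 1.01e-109.

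The second contact of the MRPS23 start was the bin at the VEZF1 start, 135 kb away, with a contact count of 77 (60.8 to 96.2). It was 3.08 times the median at its distance, the 5th of 566. This was the only listed interaction of the VEZF1 start bin, and this bin held no HLF motif. The third, with a contact count of 59 (44.9 to 76.1), was the bin in CUEDC1 whose 2 sites are printed above. It lay 90 kb away and reached 2.27 times the median there. CUEDC1, a gene for a CUE domain protein, lies between MRPS23 and VEZF1.

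The bins directly on either side of the SRSF1 body bin were not listed singly with the MRPS23 start, although both lay in the merged range described next. The bin 20 kb further, past SRSF1, had a contact count of 43 (31.1 to 57.9).

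The 2 largest contact counts belonged to 1 merged group of neighboring bin pairs, which joined 7 bins from MRPS23 into CUEDC1 with 7 bins across VEZF1 and SRSF1 (chr17:57845001-57880000 and chr17:57975001-58010000). Of its 49 bin pairs, a fraction of 0.306 was significant, and the sumCC was 702. The list kept 3 interactions of this group, with contact counts of 141, 77 and 26, which add up to 244. Not all significant bin pairs of the group were thus listed. The remaining 458 contacts of the group were spread over bin pairs that are not listed singly. The interaction with a contact count of 26 joined CUEDC1 to the SRSF1 body 125 kb away and was equal to the median at its distance. In all, 16 of the 95 interactions (16.8%) belonged to merged groups of more than 1 bin pair, beside a background of 7.69% over the whole list. Nothing is read from this share, because the sumCC of merged groups was among the values that chose the locus. SRSF1 had 9 of them, VEZF1 8, MRPS23 6 and MSI2 4, with interactions shared between genes counted for each.

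Of the 12 partners of the MRPS23 start more than 500 kb away, 5 had a contact count above the median at their distance. The background over the whole list, at all distances, was 47.6%. The bin at the C17orf67 start, 1015 kb on the centromeric side, had a contact count of 38 (26.9 to 52.2), the 2nd of 65 at that distance. A bin in ANKFN1, 1725 kb away on the same side, had 32 (21.9 to 45.2), the 3rd of 21. The longest interaction of the locus ran 2995 kb to a bin in BCAS3 on the telomeric side, with 29 contacts (19.4 to 41.6), the 2nd of 7. A bin in MSI2 at 530 kb and a bin in HSF5 at 615 kb were the 33rd of 132 and the 21st of 100. The other distant partners were at or below the median at their distance. The 2 lowest contact counts of this anchor were 14 each, at partners 850 kb away in RAD51C, a gene for a DNA repair protein, and 1445 kb away near GDPD1. They were the 57th of 62 and the 13th of 15 at these distances.

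The other interactions of MRPS23 were few. With its body from 57834781 to 57850056 on the minus strand (15.3 kb, ENSG00000181610.13) and its flanks, the gene had 37 interactions, of which 31 touched the start bin, 1 another bin of the body and 5 the flanks alone. Of the 5, 4 shared the bin chr17:57865001-57870000, which also holds a transcript start of CUEDC1, with contact counts of 39, 28, 20 and 20. Per 100 kb of window, MRPS23 had 66.9 interactions and ranked 14 of 19970 protein-coding genes. By number alone it ranked 204. The window of CUEDC1 overlaps that of MRPS23. It had 55 interactions, of which 45 were also counted for the locus and 31 came from the bin at the MRPS23 start.

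**Figure D2:**
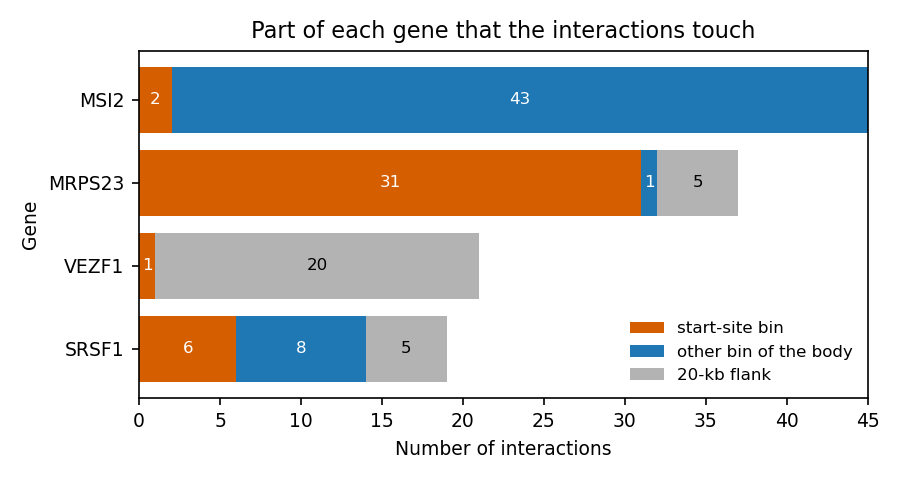
Number of interactions (x axis) of each gene (y axis), split by the part that was touched: a bin with an annotated start site, another bin of the body, or the 20-kb flanks alone. MRPS23 has 31 of 37 at its start, MSI2 43 of 45 in the rest of its body and VEZF1 20 of 21 in its flanks.

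MSI2 had the largest number of interactions, 45, and the longest body (57255851 to 57684689 on the plus strand, 428.8 kb, ENSG00000153944.12, 31 transcripts). It ranked 113 by number and 2475 per 100 kb, with 9.60 interactions per 100 kb of window. The bin that holds the annotated start, chr17:57255001-57260000, had 0 listed interactions. Bins with the start of another MSI2 transcript had 2, with contact counts of 28 and 20. The other 43 touched the body elsewhere, and none touched the flanks alone.

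Both ends of 26 of the 45 interactions lay within the MSI2 window, with contact counts from 15 to 55, and this was so for 0 of the interactions of MRPS23, VEZF1 and SRSF1. The windows of these genes, of 46.4 to 56.7 kb, leave hardly any room for interactions within them, since the list begins at 50 kb. Counted over the bins of the body, the interactions used bins of the first 100 kb from the MSI2 start 10 times, of the second 17 times, of the third 27 times and of the fourth 15 times. The last 28.8 kb were not used.

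The leading MSI2 anchors began at 57420001, 57515001 and 57560001, each with 8 interactions and rank 1471 of all anchor bins, followed by 57465001 with 7 and 57380001 with 5. All 5 bins were intronic and held no annotated exon. Only the bin at 57465001 held an HLF motif, the first MSI2 site printed above. Contact counts of the 3 leading bins ran from 18 to 38, from 14 to 55 and from 13 to 44.

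The largest contact count within MSI2 was 55 (41.4 to 71.6), between bins at 57425001 and 57515001, 90 kb apart and 2.12 times the median at that distance. The next was 44 (32.0 to 59.1), between 57500001 and 57560001. None of these bins held an HLF motif. Of the 19 interactions of MSI2 with bins outside its window, 6 ran to the centromeric and 13 to the telomeric side.

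The strongest contact of MSI2 with another gene for its distance joined its bin at 57475001 to the start of DYNLL2, 605 kb away on the far side of SRSF1. DYNLL2 encodes a dynein light chain. The contact count was 46 (33.7 to 61.4), 2.14 times the median and the largest of 100 interactions at that distance. The DYNLL2 start, which it shares with the divergent lncRNA DYNLL2-DT, was reached 3 times by the locus, each time from MSI2, with contact counts of 46, 20 and 13. The last was the lowest contact count of the locus, at 520 kb.

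Among the longest interactions of MSI2, a bin in PCTP, a gene for a phosphatidylcholine transfer protein, 1605 kb on the centromeric side had a contact count of 34 (23.5 to 47.5), the largest of 17 at that distance. A bin in PPM1E, which encodes a protein phosphatase, lay 1505 kb away on the telomeric side and also had 34, the 2nd of 18. The longest, 2420 kb to TUBD1, had 20 (12.2 to 30.9).

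VEZF1 and SRSF1 could not be told apart by most of their interactions. VEZF1 (57971547 to 57988259 on the minus strand, 16.7 kb, ENSG00000136451.9) had 21 and SRSF1 (58000919 to 58007346 on the minus strand, 6.43 kb, ENSG00000136450.13) had 19, of which 17 were the same, since the windows overlap. Of the 21 of VEZF1, 14 also touched the SRSF1 body, and with the flanks left out VEZF1 kept 1 interaction, that of its start bin with the MRPS23 start. SRSF1 had 6 interactions at its start bin, 8 in the rest of its body and 5 in its flanks alone. Their numbers ranked 677 and 818, and 122 and 92 per 100 kb.

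The SRSF1 body bin, chr17:58000001-58005000, had 8 interactions with contact counts of 141, 38, 37, 35, 26, 24, 24 and 19. After the MRPS23 start, its partners were the MKS1 start (38, at 205 kb), a bin near AKAP1 (37, at 870 kb, the 2nd of 61 at that distance) and a bin near DYNLL2 (35, at 110 kb). MKS1 encodes a protein of the ciliary transition zone, and AKAP1 an anchor protein for kinase A at mitochondria. The partner at the DHX40 start, 1565 kb away, had 19 contacts (11.4 to 29.7) and was the longest of both genes.

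The SRSF1 start bin, which follows it at 58005001, had 6 listed interactions with contact counts of 39, 34, 28, 23, 21 and 16 and held no motif. It was not listed with the MRPS23 start, but it lay in the merged range above, whose significant bin pairs are not all listed. No lack of contact can therefore be read from this. Its first partner was the bin at 58215001, which holds starts of MKS1 and of LPO, the lactoperoxidase gene. Between the VEZF1 start and SRSF1, the bin at 57990001 had a contact count of 54 (40.6 to 70.5) with a CUEDC1 transcript start at 57890001. That CUEDC1 bin also met the flank of VEZF1 at 57965001, with 43 (31.1 to 57.9). It was 2.16 and 1.65 times the median at these distances of 100 and 75 kb.

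Of the 95 interactions, 10 joined the window of 1 member to that of another, with interactions of VEZF1 and SRSF1 overlapping as before. The windows of MRPS23 and VEZF1 were joined by 5, with contact counts of 141, 77, 39, 27 and 24. Those of MRPS23 and SRSF1 were joined by 3, with 141, 77 and 43. Only the 77 touched VEZF1 itself, and only the 141 touched the SRSF1 body. The 39 ran from a CUEDC1 transcript start to another bin in CUEDC1, in the flanks of MRPS23 and VEZF1, and the 24 also ended in CUEDC1. MSI2 and MRPS23 were joined by 3 with lower contact counts, 31, 28 and 19, of which the first 2 came from the MRPS23 start. A single interaction, with 24 contacts over 730 kb, joined MSI2 to the SRSF1 body in the window of both VEZF1 and SRSF1. With the windows widened to 50 kb, the number of joins was 25, and with gene bodies alone it was 6.

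Outside the 4 windows, the locus met 47 partner bins through 59 interactions. The genes whose start bins were met most often were CUEDC1 (6 interactions; 54, 43, 34, 28, 23 and 17 contacts), DYNLL2 (3), MKS1 (39 and 38) and EPX, the eosinophil peroxidase gene (21 and 16). LPO, C17orf67, MTMR4 and DHX40 were met once. The genes also shared partner bins. MSI2 shared 4 of its 16 partner bins with SRSF1, which were 23.5% of the 17 of SRSF1. MRPS23 shared 5 of 36 (13.9%) with SRSF1 (29.4%), 4 with VEZF1 and 3 with DYNLL2.

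Because the locus was chosen by its contact counts, their place in the whole list is a description. The median was 27 with quartiles of 20 and 34, beside 24 for all interactions, and 5 interactions had at least 50 contacts, beside a background of 2.83%. The median distance was 185 kb, beside 255 kb, and 9.47% spanned more than 1 Mb, beside 13.7%. Relative to the same distance the median was 1.08, with 51 interactions (53.7%) above 1, beside a background of 47.6%. By gene, the median was 1.04 for MSI2, 1.08 for MRPS23 and 1.17 for both VEZF1 and SRSF1. The maximum for MSI2 was 2.14, below that of the others, 5.88, which is 1 shared interaction. A q-value under 1e-05 was reached by 66 interactions (69.5%), beside a background of 66.5%.

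An HLF motif was present in at least 1 bin of 62 of the 95 interactions (65.3%; 55.3 to 74.1%). The background over all interactions was 66.8%, and over chromosome 17 it was 59.7%. By gene, the share was 86.5% (72.0 to 94.1%) for MRPS23 and 51.1% (37.0 to 65.0%) for MSI2. For VEZF1 and SRSF1 it was 66.7% (45.4 to 82.8%) and 63.2% (41.0 to 80.9%). These intervals treat interactions as independent, although many share a bin and most of those of VEZF1 and SRSF1 are the same. They therefore do not measure a difference between genes. The share of MRPS23 came from 1 bin, since every interaction of its start bin contains the 2 sites of that bin. Without that bin, 31 of 64 interactions of the locus (48.4%) had a motif. Both bins had a motif in 13 of the 95, beside a background of 16.2%.

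Counted by bin rather than by interaction, 9 of the 44 anchor bins within the windows held a motif (20.5%; 11.2 to 34.5%). The bins 25 kb away that were not anchors had one in 10 of 46 (21.7%; 12.3 to 35.6%), and all anchor bins of the list in 31.5%. With TTACGTAA alone the order of anchor and flanking bins turned, at 9.09% (3.59 to 21.2%) and 2.17% (0.385 to 11.3%), with overlapping intervals. The 53535 anchor bins of the list together held 1255 sites of TTACGTAA. The share of bins over the whole list is not given for TTACGTAA alone, so nothing is read from this order. Of the 8 anchors with 5 or more interactions, 3 held a motif. The 9 anchors with a motif were used unequally. The 4 with a purine before and a pyrimidine after at least 1 site had 31, 8, 7 and 1 interactions, and the other 5 had 2, 2, 1, 1 and 1. This split by flanks was made after the values were seen, so nothing is read from it. By site, 5 of the 11 in anchors of the locus had these flanks (45.5%; 21.3 to 72.0%), beside 27.5% of the 21182 sites in all anchor bins, a difference within the interval. A site with these flanks was present in 9.09% of the anchors, beside 10.1% of all anchor bins. By interaction the share was 55.8%, beside 36.4% of all, and 34.4% without the bin at the MRPS23 start. No motif was found in the 5 RefSeq promoters of the 4 genes (GRCh38.p14, 250 bases before to 50 after the start), as in all but 355 of 35116 promoters (1.01% with a motif). This says only that these letters are not in these windows.

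Relatives of MSI2, MRPS23 and SRSF1 elsewhere in the genome had fewer interactions. Nothing is read from this, because the members were chosen by values of their interactions. The numbers are also not corrected for window length, which was 469 kb for MSI2 and 67.8 kb for MSI1. At least 1 interaction was listed for 72.9% of protein-coding genes and at least 5 for 27.7%, with a median of 2. All 4 members had at least 5, which follows from how they were chosen. Of the 12 SR protein genes, 10 had at least 1 and 5 at least 5. These were SRSF1 with 19, SRSF7 with 14, SRSF10 with 9, SRSF5 with 7 and SRSF3 with 5. MSI1, the paralog of MSI2, had 0. The genes of the mitochondrial small ribosomal subunit were taken by symbol, as all protein-coding genes whose symbol begins with MRPS. Of these 29, 23 had at least 1 and 7 at least 5. MRPS23 led with 37, MRPS15 had 24 and MRPS35 had 14, while MRPS21 and MRPS22 had 9 and MRPS14 and MRPS31 had 6. Among the 15 protein-coding genes from AKAP1 to MPO, the region of the locus itself, all had at least 1 and 12 had at least 5, with CUEDC1 at 55, DYNLL2 at 33 and EPX and MKS1 at 8 each.

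The locus begins 1.93 Mb telomeric of HLF, whose break forms the fusion gene. None of the 95 interactions touched HLF or crossed it, as was so for crossings over all of chromosome 17 (0 interactions), and the most centromeric partner, in PCTP, lay 450 kb beyond the HLF end. The list holds 0 interactions between chromosomes, so contacts of the normal and of the translocated copy of chromosome 17 cannot be told apart. Only 9 interactions were counted through the flanks alone, with contact counts from 18 to 54 (median, 28). Just outside the windows, 6 lay 20 to 30 kb from a gene body and were left out, with 23 to 61 (median, 31.5).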

How the data were processed

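HiChIP was performed in 2 biological replicates of TCF3-KO HAL-01 cells. The authors trimmed the reads with TrimGalore (version 0.6.6 per the labels), merged the replicates, aligned them to hg38 with BWA-MEM, extracted pairs with pairtools parse, omitted the dedup step and called MACS2 peaks as reference. FitHiChIP (version not given in the sources used here) tested pairs of 5-kb bins from 50 kb to 3 Mb apart, kept q-values under 0.01 and merged nearby contacts. The deposited contact counts and sumCC are read pairs without normalization. The deposited p-values and q-values come from the FitHiChIP model of distance and coverage. The deposited fraction gives how much of a merged group was significant, over all its bin pairs. No reads, matrices or peaks were analysed here.

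Here, each bin was checked to lie within its hg38 chromosome (0 past an end) and assigned to genes of GENCODE release 44. A bin is a start bin if it holds the start of any annotated transcript of a gene. Distances run from bin start to bin start. Intervals are at 95%. The motif search, the ratio to the same distance and the Poisson intervals were tested on simulated data. The genes and interactions named are the 4 members, genes from AKAP1 to MPO, for each member the interactions with the 3 largest contact counts, the 3 smallest P values and the 2 longest distances, the 5 leading anchor bins, the genes whose start bins met the locus most often, genes that share partner bins, and genes of the family lists with at least 5 interactions. Other bins, sites and the flanks of the motifs were chosen after their values were seen. The members and lists were chosen with earlier results of these data known. With 1 condition and merged replicates, no test between groups was made. Sequence was read with pyfaidx 0.9.0.4, intervals were computed with scipy 1.17.1, and tables and plots were made with pandas 2.3.3, numpy 2.4.6 and matplotlib 3.10.9 in Python 3.11.15.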

Additional observations from a re-analysis of the deposited data

How the results depend on the processing

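The alternatives were gene bodies alone or with 50 kb, q-values under 0.001 or 1e-05, at least 20 contacts, distances up to 1 Mb, 1 interaction per merged group, merged bin ranges, TTACGTAA alone and flanking bins at 50 kb. Under those other than the motif and the flanking bins, the number of interactions of the locus ran from 66 (q-values under 1e-05) to 109 (50 kb), within 1.5 times of 95, and the median ratio to the same distance from 1.03 to 1.08. The number of joins between members was 10, and it was 6 with gene bodies alone and 25 with 50 kb. With q-values under 1e-05 the median contact count was 30 in place of 27, and the MRPS23 start bin ranked 50 in place of 24, with 18 interactions in place of 31. With these q-values MRPS23 had 22 interactions in place of 37. VEZF1 had 1 with gene bodies alone and 33 with 50 kb, in place of 21. With TTACGTAA alone, 17.9% of interactions, 9.09% of anchor bins and 2.17% of flanking bins had a motif, fewer because fewer sites count. The order of anchor and flanking bins turned. No share over the whole list is given for TTACGTAA alone, so nothing is read from these values. Alternatives chosen after seeing the data were the interactions without the MRPS23 start bin, of which 48.4% had a motif, and sites with a purine before and a pyrimidine after, present in 9.09% of anchor bins (10.1% of all in the list). The cause of the other changes was not tested. No paired analysis was possible because both replicates were merged into 1 list, and for the same reason no value without replicate 1 or replicate 2 could be had.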
